A study of Mus musculus with 6 samples.

Results

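The genes described here encode the protein subunits of oxidative phosphorylation that are made from nuclear DNA. They were taken by name from the filtered expression table, as every symbol that begins with Nduf followed by a, b, c, s or v, with Uqcr, with Atp5 or with Cox followed by a digit from 4 to 8. The pattern took 104 names, and leaving out the 13 that end in -ps gave 91 of the 21948 genes in the table. By role they were 7 core subunits of complex I, 32 supernumerary subunits of complex I, 8 assembly factors of complex I, 8 subunits of complex III, 19 of complex IV and 17 of complex V. The label therefore covers 8 genes, Ndufaf1 to Ndufaf8, whose products build complex I without staying in it. It also covers Ndufa11b, Ndufb4c, Ndufs6b and Cox6c2, 4 genes that GENCODE release M21 annotates as processed pseudogenes. Ndufa4 and Ndufa4l2 are counted with complex IV, where the Ndufa4 protein is placed. The names do not take Cyc1, a subunit of complex III, or any subunit of complex II.

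Oxidative phosphorylation makes most of the ATP of resting cells at the inner mitochondrial membrane. Complexes I, III and IV pass electrons from NADH to oxygen and pump protons across the membrane, and complex V, the ATP synthase, lets the protons back to drive ATP synthesis. Most subunits come from nuclear genes and a few from mitochondrial DNA, and several subunits of complex IV exist as an isoform found in most tissues and another found mainly in striated muscle.

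The series measured total RNA from gingiva, labelled as oral mucosa, of C57BL/6 mice aged 12 weeks. Mice without Plg, the gene for the plasmin precursor plasminogen, carry the label Plg KO, and their wild-type littermates the label Plg WT, with 3 libraries in each group. The sources used here state neither the allele nor whether a library is 1 animal. The p-values therefore reflect how far these 6 libraries varied, and that variation may be technical. Plg itself had 0, 0 and 2 counts in Plg WT 1, 2 and 3 against 2, 0 and 0 counts in Plg KO 1, 2 and 3. It therefore gives no check of the labels.

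Total gene counts ran from 26183389 to 36429150 per library. All 7 basal and all 9 suprabasal epithelial keratin and adhesion markers listed for the tissue were detected, with summed levels of 16061 to 19507 and 30660 to 40141 CPM, the counts of a gene scaled to a common library size with TMM factors. RNA of fast skeletal muscle was present in every library and was lowest in Plg KO 1. The 17 fast muscle markers, leaving out Cox6a2, summed to 25671, 12686 and 15141 CPM across Plg WT 1, 2 and 3. The sums were 5343, 21990 and 25917 CPM across Plg KO 1, 2 and 3. None of these 17 markers was at 0 in any library, and 14 of them were lowest in Plg KO 1. Of 4 tested slow muscle markers 1 was lowest there, and their sum was 702 CPM in Plg KO 1 against 650 CPM in Plg WT 1. Salivary gland markers (12 tested) were lowest in Plg WT 2 and Plg WT 3, at 3528 and 2014 summed CPM against 9222 to 12206 in the other 4 libraries. By Xist and Ddx3y, Plg WT 3 and Plg KO 1 were male and the other 4 female. In such bulk samples fewer cells of a type and less RNA per cell cannot be told apart.

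No nuclear-encoded subunit passed the test between Plg KO and Plg WT. Of the 91 genes, 90 passed the filter on low counts. Ndufa11b did not, with 13, 8 and 4 counts in Plg WT 1, 2 and 3, against 7, 5 and 10 in Plg KO 1, 2 and 3. edgeR's quasi-likelihood F test called 0 of the 90 higher and 0 lower at a Benjamini-Hochberg adjusted p under 0.05, where 0.237% of all 17757 tested genes were called. At an unadjusted p under 0.05 the count was also 0, against 9.25% of all tested genes. DESeq2 and limma-voom called 0 members each and counted 1 member each at an unadjusted p under 0.05. The smallest unadjusted p was 0.0527, for Cox4i2 (adjusted p = 0.549). The groups did not overlap with Plg KO higher in 0 members, against 7.51% of tested genes, and with Plg KO lower in 1 member, Cox4i2, against 7.18%.

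A missed threshold does not show equal expression, so the intervals of the differences are given. The 95% interval of the fold difference lay within 1.5-fold in either direction for 78 of 90 members and within 2-fold for 83. The 7 with wider intervals were Ndufb4c, Ndufs5, Cox4i2, Cox6a2, Cox6b2, Cox7a1 and Cox8b. The median log2 difference (Plg KO minus Plg WT) was 0.04, beside -0.00 over all tested genes. It was 0.03 for the complex I core, 0.04 for its supernumerary subunits, 0.01 for its assembly factors, 0.04 for complex III, 0.05 for complex IV and 0.03 for complex V. The log2 difference was positive in 63 of 90 members, where 49.2% of all tested genes had a positive difference. That count rested on single libraries, at 28 without Plg KO 3, 38 without Plg WT 2, 43 without Plg KO 2 and 80 without Plg KO 1.

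**Figure D1:**
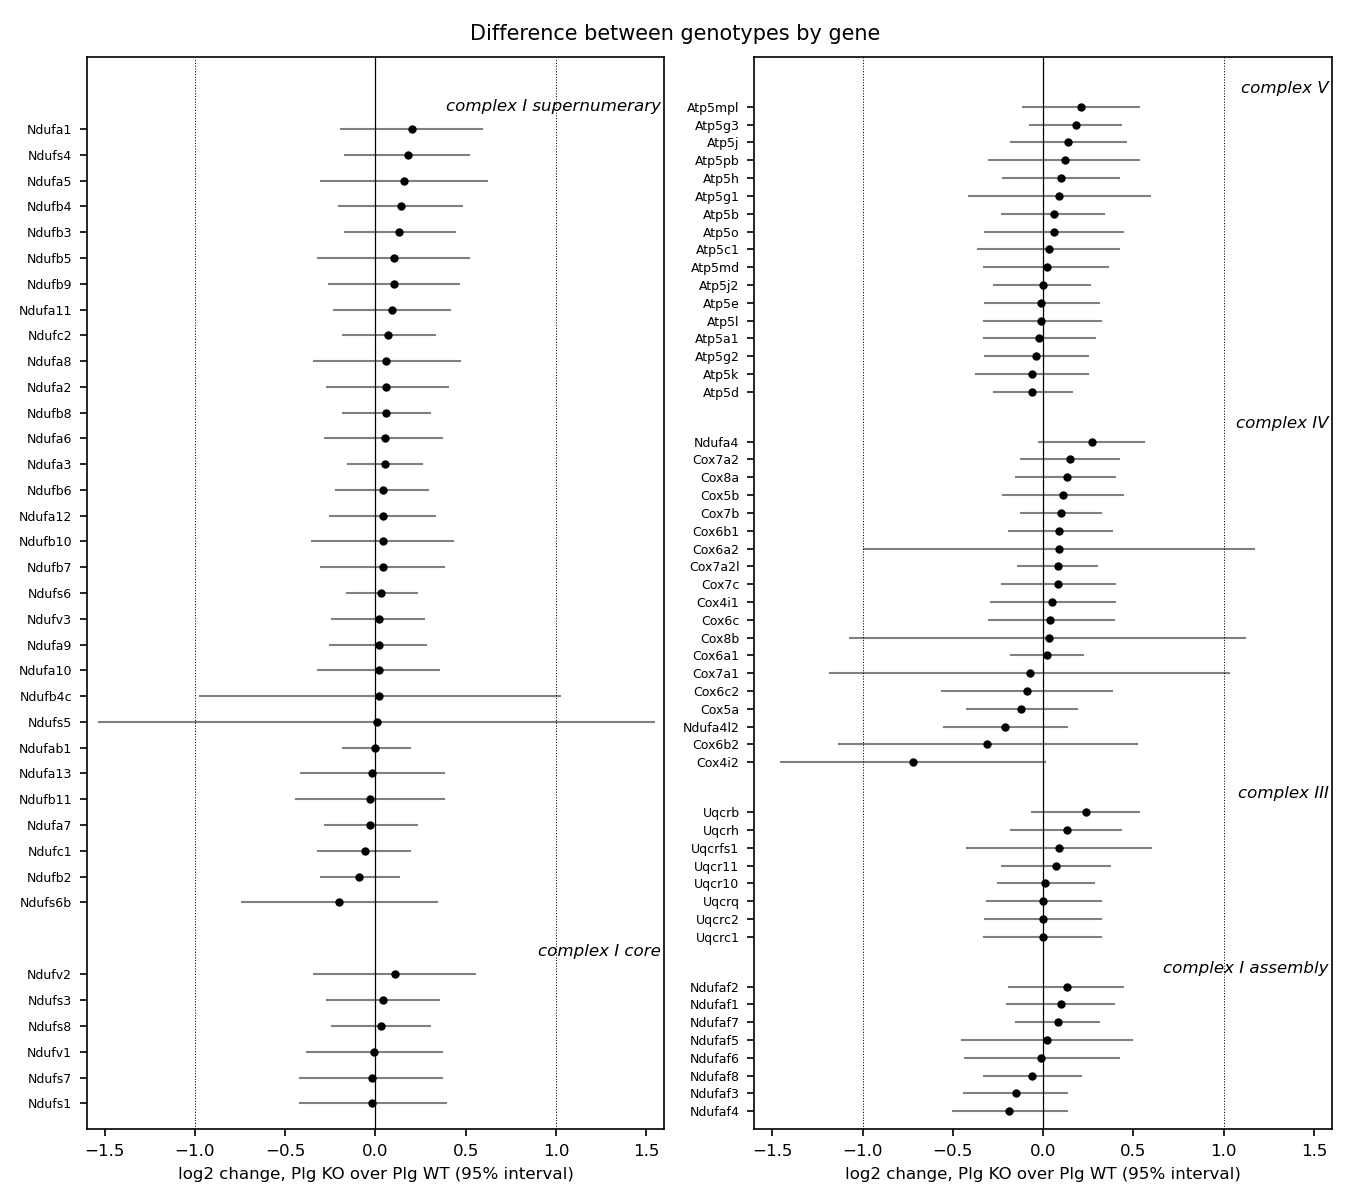
Difference between genotypes for the tested genes named on the axes, in 6 classes by role. Points are log2 differences (Plg KO minus Plg WT) from edgeR, bars are 95% intervals and dotted lines mark 2-fold; most intervals lie within 1.5-fold and the widest belong to Ndufs5, the muscle isoforms Cox6a2, Cox7a1 and Cox8b, and genes of low level such as Cox4i2.

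The libraries differed among themselves more than the groups did. Summed over the tested members, the level was 20245, 17201 and 18212 CPM in Plg WT 1, 2 and 3 and 15967, 20450 and 21449 CPM in Plg KO 1, 2 and 3. Each member was then set against its own mean over the 6 libraries, on a log2(CPM + 0.5) scale. The average of these centred levels was 0.09, -0.11 and -0.02 in the Plg WT libraries and -0.25, 0.10 and 0.18 in the Plg KO libraries. The lowest and the highest library were thus both Plg KO, with the Plg WT libraries between them.

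Plg KO 1 was the lowest of the 6 libraries in 64 of 90 members and the highest in 0, against 18.8% and 16.4% of all tested genes. Plg KO 3 was the highest in 54 members, against 17.5% of all tested genes. All 7 core subunits of complex I were lowest in Plg KO 1 and highest in Plg KO 3. In complex V the lowest library was Plg KO 1 for 14 of 17 subunits, in complex III for 6 of 8, in complex IV for 12 of 19 and among supernumerary subunits of complex I for 22 of 31. It was so for 3 of 8 assembly factors. The level in Plg KO 1 divided by the mean of Plg KO 2 and Plg KO 3 had a median of 0.772 over the members and lay below 1 in 89 of 90, the exception being the assembly factor gene Ndufaf6 at 1.17. Over all tested genes the median of this ratio was 0.996. The fast muscle markers also had their lowest mean centred level in Plg KO 1, at -1.28. So did the markers of slow muscle (-0.38), white fat (-0.56), erythroid cells (-0.74), osteoblasts (-0.69) and endothelium (-0.34). All other marker lists were lowest in another library, among them macrophage and salivary gland markers, at 0.24 and 0.21 in Plg KO 1. The part of any of these cell types in the difference was not tested. Without Cox6a2, Cox7a1 and Cox8b the median ratio of the other 87 members was 0.775. Leaving out 3 of 90 members can hardly move a median, so this value does not bear on the part of muscle RNA.

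**Figure D2:**
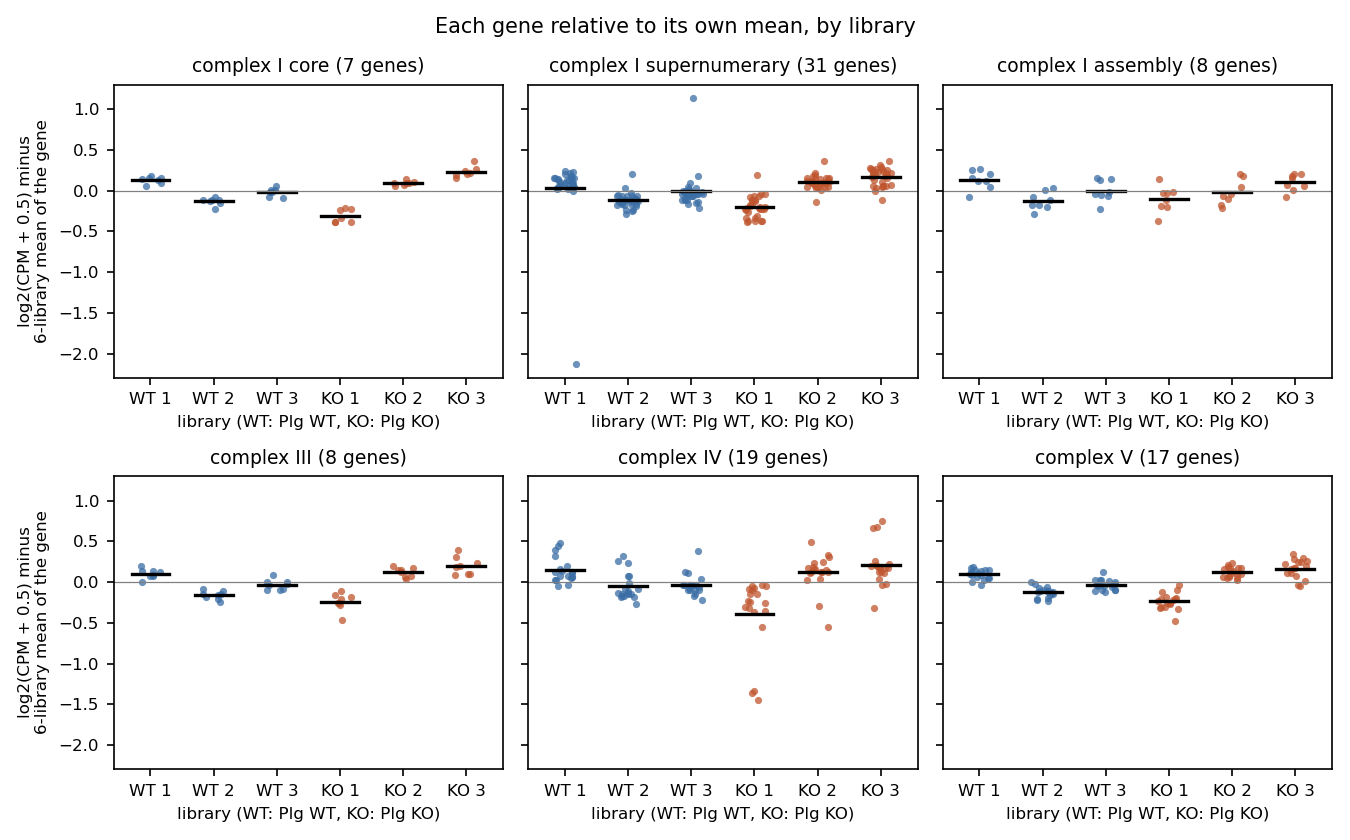
Centred level of each tested gene in each library, by class. The y axis is log2(CPM + 0.5) minus the gene's mean over 6 libraries, points are genes and black lines are class means; in every class but the assembly factors Plg KO 1 has the lowest mean and Plg KO 3 the highest, and the 3 points near -1.4 in complex IV are Cox6a2, Cox7a1 and Cox8b.

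Leaving out Plg KO 1 did not add a call. The same edgeR test then called 0 members, with a median log2 difference of 0.15 beside -0.01 for the whole set of genes. It counted 8 of 90 members (8.89%) at an unadjusted p under 0.05, all with Plg KO higher, against 9.89% of all genes tested in that fit. They were Ndufa1, Ndufa5, Ndufs4, Uqcrb, Cox6a2, Ndufa4, Atp5g3 and Atp5mpl, with log2 differences of 0.26 to 0.50. The smallest adjusted p among them was 0.338, for Atp5mpl. With the 4 female libraries alone, which leave out Plg KO 1 and Plg WT 3, the median was 0.14 and again 0 members were called.

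The core subunits of complex I carry its flavin and iron-sulfur clusters. Ndufv2, which holds a cluster close to the NADH site, had 374, 309 and 321 CPM in Plg WT 1, 2 and 3 and 263, 378 and 439 CPM in Plg KO 1, 2 and 3. Ndufs3, of the peripheral arm, had 191, 161 and 164 CPM in Plg WT and 148, 182 and 200 CPM in Plg KO. In both genes the groups overlapped, with Plg KO 1 below all other libraries. Ndufs8 had 240, 217 and 229 CPM in Plg WT and 199, 246 and 255 CPM in Plg KO. Of the core genes Ndufs7 had the highest level per length, at 375 CPM per kb of transcript, with 314, 262 and 284 CPM in Plg WT and 214, 300 and 332 CPM in Plg KO. The log2 differences of the 7 core genes ran from -0.02 to 0.11 (smallest adjusted p = 0.923).

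The supernumerary subunits of complex I surround the core and serve its assembly and stability. Ndufa1, a membrane-arm subunit on chromosome X, had 219, 165 and 181 CPM in Plg WT 1, 2 and 3 and 172, 229 and 249 CPM in Plg KO 1, 2 and 3, a log2 difference of 0.20 ± 0.17 (SE). Ndufs4, known for the mitochondrial disease that its loss causes, had 103, 82.0 and 89.7 CPM in Plg WT and 84.3, 108 and 118 CPM in Plg KO. Both genes were higher in Plg KO 2 and Plg KO 3 than in any Plg WT library, while Plg KO 1 lay among the Plg WT libraries. Ndufb3, like the next 2 genes a subunit of the membrane arm, had 120, 102 and 111 CPM in Plg WT and 102, 125 and 139 CPM in Plg KO. Ndufb4 had 24.4, 22.2 and 19.9 CPM in Plg WT and 20.4, 25.1 and 28.0 CPM in Plg KO. Ndufb9 had the highest level per length of the class, at 1108 CPM per kb, and had 834, 704 and 719 CPM in Plg WT and 645, 855 and 925 CPM in Plg KO. The pseudogene Ndufs6b had 2.73, 1.89 and 2.59 CPM in Plg WT and 2.02, 1.98 and 2.30 CPM in Plg KO, and shares 38.5% of its 37-base windows with Ndufs6. Of the 31 tested genes of the class 25 had a positive log2 difference, and the smallest adjusted p was 0.782.

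The assembly factors of complex I had a median level of 20.0 CPM per kb, beside 205 for the core subunits and 174 for 29 supernumerary subunits. They ran from 5.26 for Ndufaf6 to 64.0 for Ndufaf8, a range that overlaps the supernumerary subunits, of which Ndufb4 was the lowest at 24.0. Ndufaf4 had 32.0, 23.5 and 29.8 CPM in Plg WT 1, 2 and 3 and 24.6, 23.6 and 26.8 CPM in Plg KO 1, 2 and 3, a log2 difference of -0.19 ± 0.14 (SE). Ndufaf3 had 35, 30 and 28.3 CPM in Plg WT and 25.7, 27.5 and 30.8 CPM in Plg KO. These 2 products work together early in assembly, and in both genes the ranges of the groups overlapped. Ndufaf2, which acts late in assembly, had 17.4, 14.5 and 13.3 CPM in Plg WT and 15.6, 16.2 and 17.6 CPM in Plg KO. Ndufaf7, a methyltransferase, had 60.3, 55.3 and 55.9 CPM in Plg WT and 57.6, 56.1 and 67.3 CPM in Plg KO. Ndufaf8 had 54.2, 50.3 and 48.5 CPM in Plg WT and 43.4, 56.4 and 47.2 CPM in Plg KO. Of the 8 factors 4 had a positive and 4 a negative log2 difference (smallest adjusted p = 0.749).

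Complex III takes electrons from ubiquinol to cytochrome c. Uqcrb, a small subunit near the quinone site, had 100, 84.7 and 93.9 CPM in Plg WT 1, 2 and 3 and 93.0, 111 and 124 CPM in Plg KO 1, 2 and 3, a log2 difference of 0.24 ± 0.13 (SE), adjusted p = 0.640. Only 46.7% of the 37-base windows of its transcript occur in no other annotated transcript. Uqcrfs1, the Rieske iron-sulfur protein, had 358, 271 and 294 CPM in Plg WT and 226, 345 and 411 CPM in Plg KO. It was the subunit of the complex with the lowest ratio of Plg KO 1 to the other Plg KO libraries, at 0.598. Uqcrh had 151, 126 and 134 CPM in Plg WT and 126, 155 and 167 CPM in Plg KO. Uqcr11 had 178, 151 and 166 CPM in Plg WT and 146, 193 and 181 CPM in Plg KO. Uqcrq had the highest level per length of the complex, at 856 CPM per kb, and had 379, 326 and 334 CPM in Plg WT and 287, 387 and 366 CPM in Plg KO. In all 5 genes the groups overlapped.

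Complex IV, cytochrome c oxidase, reduces oxygen to water. Ndufa4 (GRCm38 chromosome 6, 11900292 to 11907497) had the highest level per length of all members, at 1239 CPM per kb. It had 544, 462 and 519 CPM in Plg WT 1, 2 and 3 and 527, 663 and 647 CPM in Plg KO 1, 2 and 3. Its log2 difference of 0.27 ± 0.12 (SE) was the largest positive one among the members (adjusted p = 0.580), and Plg KO 1 lay within the Plg WT range. Cox7a2, an isoform found in most tissues, had 336, 285 and 300 CPM in Plg WT and 301, 348 and 372 CPM in Plg KO. Cox7b had 218, 202 and 200 CPM in Plg WT and 206, 218 and 240 CPM in Plg KO. Cox6b1, the partner of the testis isoform Cox6b2, had 467, 389 and 429 CPM in Plg WT and 398, 491 and 483 CPM in Plg KO. Cox7a2l, a relative of the Cox7a isoforms, had 127, 111 and 119 CPM in Plg WT and 118, 125 and 134 CPM in Plg KO. The groups overlapped in all 5 of these genes.

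Testis isoforms were low or close to undetected. Cox6b2 had 1.34, 1.5 and 0.929 CPM in Plg WT 1, 2 and 3 and 0.783, 0.816 and 1.43 CPM in Plg KO 1, 2 and 3, with a 95% interval of the log2 difference from -1.13 to 0.52. Cox7b2 had 1 count over the 6 libraries and Cox8c had 3, and neither is among the 91 genes. No fold is given for these.

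Within complex IV the striated-muscle isoforms had the widest range over the libraries. Cox6a2 (GRCm38 chromosome 7, 128205435 to 128206387) had 141, 95 and 104 CPM in Plg WT 1, 2 and 3 and 41.2, 150 and 171 CPM in Plg KO 1, 2 and 3. Cox7a1 had 80.5, 51.2 and 62.8 CPM in Plg WT and 20.9, 72.7 and 91.3 CPM in Plg KO. Cox8b, which brown fat also uses, had 46.0, 30.6 and 32.6 CPM in Plg WT and 12.9, 41.7 and 56.7 CPM in Plg KO. All 3 were lowest in Plg KO 1 and highest in Plg KO 3. Plg KO 1 had 0.257 of the mean of the other Plg KO libraries for Cox6a2, 0.255 for Cox7a1 and 0.263 for Cox8b, the 3 lowest such ratios among the members. The log2 differences between genotypes were 0.09 ± 0.46, -0.07 ± 0.47 and 0.03 ± 0.47 (SE), each with an adjusted p of 0.978 or more. The sign turned with the tool for Cox6a2 and Cox8b but not for Cox7a1. For each of the 3 it turned when certain single libraries were left out. limma-voom gave -0.14, -0.32 and -0.23 for Cox6a2, Cox7a1 and Cox8b, and edgeR without Plg KO 1 gave 0.50, 0.34 and 0.43.

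The mean level of fast muscle markers ranked the 6 libraries in the same order as that of the 3 isoforms. Ckm, the muscle creatine kinase, had 2778, 1449 and 1814 CPM in Plg WT 1, 2 and 3 and 644, 2647 and 3009 CPM in Plg KO 1, 2 and 3. Averaged over the 17 markers the centred log2 levels were 0.49, -0.25 and -0.12 in Plg WT and -1.28, 0.45 and 0.70 in Plg KO. For Cox6a2, Cox7a1 and Cox8b together they were 0.44, -0.15 and 0.02 in Plg WT and -1.38, 0.38 and 0.70 in Plg KO. Only 2 brown fat markers were tested, Cidea and Dio2. Together they had centred levels of -0.67, -0.18 and 0.33 in Plg WT and 0.09, 0.32 and 0.12 in Plg KO. Ucp1, the defining gene of brown fat, had 34 counts over the 6 libraries and Elovl3 had 1. The part of muscle or brown fat RNA in the levels of the isoforms was not tested.

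The partners of these isoforms in most tissues varied far less. Cox6a1 had 161, 157 and 154 CPM in Plg WT 1, 2 and 3 and 150, 172 and 157 CPM in Plg KO 1, 2 and 3. Cox8a had 442, 375 and 348 CPM in Plg WT and 392, 444 and 436 CPM in Plg KO. Cox7a2 is given above. Per length, the muscle isoform made up 42.4, 33.7 and 36.2% of the Cox6a pair in Plg WT and 18.7, 42.3 and 47.8% in Plg KO. For the pair of Cox7a1 and Cox7a2 the share was 28.6, 23.2 and 25.9% in Plg WT and 10.4, 25.9 and 29.1% in Plg KO. For Cox8b and Cox8a it was 13.7, 11.1 and 12.5% in Plg WT and 4.80, 12.6 and 16.6% in Plg KO. The log2 ratio of the isoform to its partner differed between the groups by -0.15 for Cox6a2, -0.44 for Cox7a1 and -0.32 for Cox8b. The two-sided exact permutation test gave an adjusted p of 0.9 for each over 5 pairs. In the same order the standard deviations were 0.27, 0.20 and 0.17 in Plg WT. They were 1.06, 0.98 and 1.01 in Plg KO, where Plg KO 1 had the lowest ratio.

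**Figure D3:**
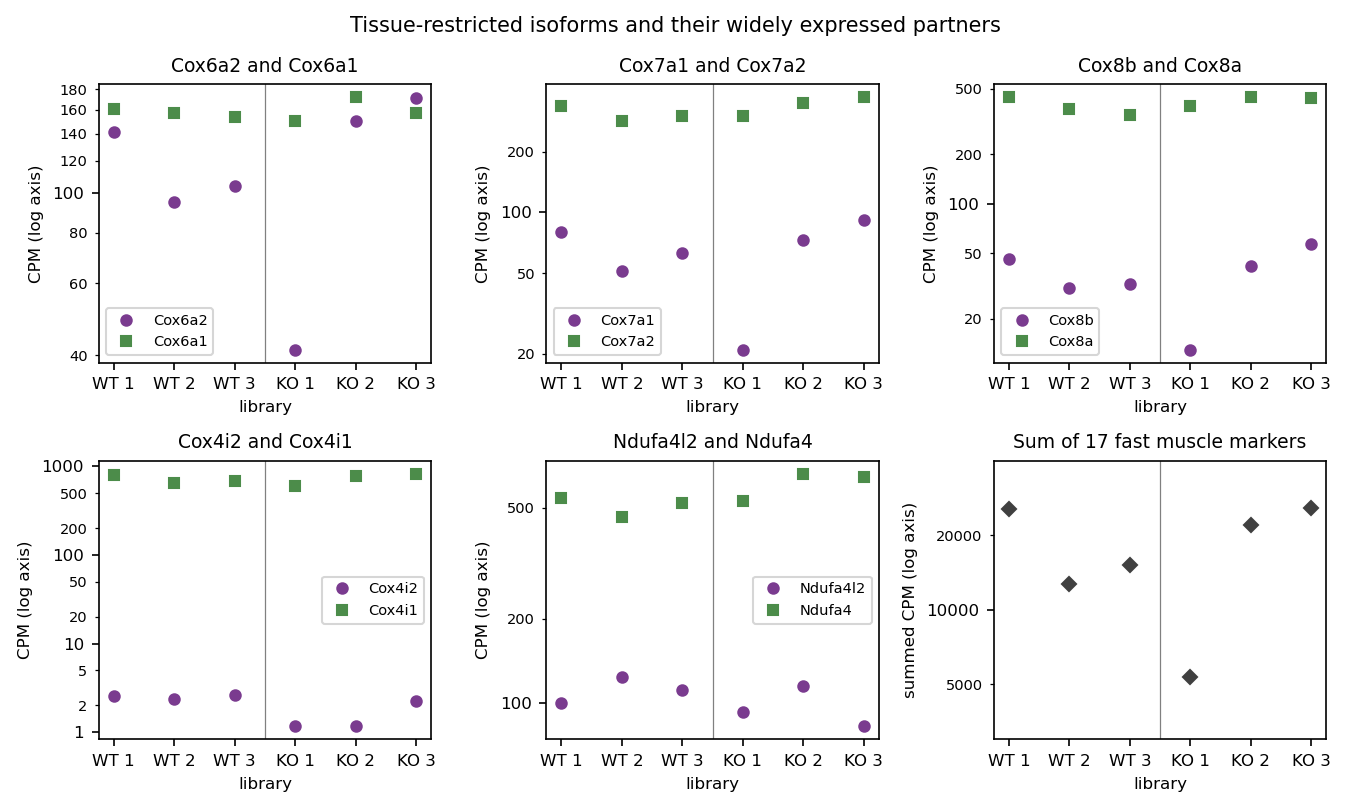
Level of 5 tissue-restricted isoforms (circles) and their widely expressed partners (squares), and of fast muscle markers (diamonds), in each library. The y axes are CPM on a log scale and differ between panels; Cox6a2, Cox7a1, Cox8b and the summed muscle markers are lowest in Plg KO 1 while their partners are not set apart there.

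The promoters of the Cox7a and Cox8 pairs are shown because the paired genes encode the same subunit and differed in how they varied. Cox6a2 was not matched. The lines give the 150 bases before the start of the transcript, from RefSeq on GRCm38.p6, on the strand of the gene. Cox7a1 lies at chr7:30184021-30184170 (plus strand), Cox7a2 at chr9:79759854-79760003 (minus), Cox8b at chr7:140900447-140900596 (minus) and Cox8a at chr19:7217617-7217766 (minus). Capitals mark letters of a motif searched on both strands.
Cox7a1: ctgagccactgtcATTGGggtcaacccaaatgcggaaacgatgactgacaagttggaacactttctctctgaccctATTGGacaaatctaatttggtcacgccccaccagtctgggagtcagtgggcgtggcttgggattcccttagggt
Cox7a2: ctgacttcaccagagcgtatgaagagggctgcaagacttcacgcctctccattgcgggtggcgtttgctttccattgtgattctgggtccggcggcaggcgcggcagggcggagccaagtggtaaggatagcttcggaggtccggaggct
Cox8b: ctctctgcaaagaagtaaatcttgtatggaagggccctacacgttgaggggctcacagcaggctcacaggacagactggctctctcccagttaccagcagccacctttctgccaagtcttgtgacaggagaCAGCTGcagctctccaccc
Cox8a: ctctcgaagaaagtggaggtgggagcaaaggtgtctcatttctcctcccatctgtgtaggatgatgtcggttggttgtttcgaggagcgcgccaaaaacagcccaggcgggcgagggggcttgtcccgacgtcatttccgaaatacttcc
The capitals in Cox7a1 are a pair of CCAAT boxes read on the other strand, and those in Cox8b are CAGCTG, the E-box of muscle transcription factors. The other stretches hold none of the motifs searched. That contrast depends on the stretch shown. The longer window of Cox8a, from 250 bases before to 50 after the start, held an ETS family motif and a CCAAT box. The same window of Cox8b also held a TATA box, and that of Cox7a2 held none. A match is a description of letters and not of binding.

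RefSeq promoter windows, from 250 bases before to 50 after the start, matched 72 of the 91 genes, with 77 windows. CCGGAAG, the core of ETS family sites such as that of GABP, stood in 22.1% of these windows and in 8.86% of all 32851 windows. GCATGCGC, the core of the NRF1 site, stood in 14.3% and in 2.71%. AAGATGGC, the core of the YY1 site, stood in 14.3% and in 2.75%. These factors are textbook regulators of genes for respiration. CCAAT stood in 41.6% of member windows and in 37.4% of all windows, TATAAA in 10.4% and 13.6%, CAGCTG in 7.79% and 16.3%, and TCAAGGTCA, a site of the ERR receptors, in 1.3% and 0.423%. The MEF2 motif of muscle genes stood in 0 member windows and in 3.19% of all windows. No test was made of these shares, and windows of genes that share a promoter overlap.

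Cox4i2 and Ndufa4l2, isoforms known to respond to low oxygen, were the other restricted forms. Cox4i2 (GRCm38 chromosome 2, 152754173 to 152765037) had 2.54, 2.36 and 2.66 CPM in Plg WT 1, 2 and 3 and 1.16, 1.17 and 2.24 CPM in Plg KO 1, 2 and 3. The 3 Plg KO libraries all lay below the Plg WT libraries, with Plg KO 3 close to them. The log2 difference was -0.72 ± 0.31 (SE), the largest negative one among the members, with a 95% interval from -1.45 to 0.01 and an adjusted p of 0.549. Ndufa4l2 had 99.7, 124 and 111 CPM in Plg WT and 92.6, 115 and 82.3 CPM in Plg KO, a log2 difference of -0.21 ± 0.14 (SE) with groups that overlapped. Cox4i1, the common form of the Cox4 subunit, had 790, 650 and 690 CPM in Plg WT and 603, 779 and 828 CPM in Plg KO.

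As a log2 ratio to its partner, neither isoform had overlapping groups, though for Ndufa4l2 Plg WT 1 and Plg KO 1 lay close. No share over other pairs of genes was computed to set beside this. The partner Ndufa4 had the largest positive log2 difference among the members, at 0.27. Cox4i2 had 1.16 to 2.66 CPM, where the pseudocount of 0.5 weighs on the ratio. The ratio of Cox4i2 to Cox4i1 was -8.02, -7.83 and -7.77 in Plg WT 1, 2 and 3, against -8.50, -8.87 and -8.24 in Plg KO 1, 2 and 3, a difference of -0.66. The ratio of Ndufa4l2 to Ndufa4 was -2.44, -1.90 and -2.21 in Plg WT and -2.50, -2.52 and -2.97 in Plg KO, a difference of -0.48. The two-sided exact permutation test gave p = 0.1 for each, the smallest value that 3 libraries against 3 allow, and an adjusted p of 0.25 over the 5 pairs. Both isoforms are known from vessel walls, but of the cells of vessel walls only endothelium had a marker list here. The 6 endothelial markers had centred log2 levels of 0.27, 0.01 and -0.11 in Plg WT and -0.34, -0.01 and 0.18 in Plg KO, with 0 of 6 called. Markers of 3 other cell types are set beside Cox4i2 as well. The 6 Schwann cell markers had centred levels of 0.43, 0.55 and -0.19 in Plg WT and -0.55, -0.56 and 0.33 in Plg KO, with 0 called. Of them 5 had a negative log2 difference and Mal a positive one, at 0.56. All 7 tested white fat markers had a negative log2 difference (median -1.32, 1 called, Cidec), and their summed level was 86.2 to 133 CPM in Plg WT and 54 to 71.9 CPM in Plg KO. All 6 fibroblast markers had a negative log2 difference (median -0.47, 0 called), with sums of 2175 to 3678 CPM in Plg WT and 1387 to 2552 CPM in Plg KO. A fall was not particular to these lists. All 6 B and plasma cell markers (median -3.44) had a negative difference too, with 0 called. So did all 5 erythroid (-0.58) and all 5 osteoblast markers (-0.38), with 0 called. All 9 tested neutrophil markers (1 called) and 11 of 12 tested salivary gland markers (0 called) had a positive one. The part of these cell types in the levels and ratios of Cox4i2 and Ndufa4l2 was not tested.

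Complex V joins a catalytic head to a rotor in the membrane. Atp5g3 had 410, 385 and 384 CPM in Plg WT 1, 2 and 3 and 392, 478 and 466 CPM in Plg KO 1, 2 and 3, a log2 difference of 0.18 ± 0.11 (SE), adjusted p = 0.674. It is 1 of 3 genes for the same rotor subunit and had the highest level per length of the complex, at 587 CPM per kb. Of the counts of the 3 genes, after scaling, Atp5g3 held 71.8 to 78.8%, Atp5g1 19.2 to 26.3% and Atp5g2 1.52 to 2.12% over the 6 libraries. This split is uncertain, because 0% of the 37-base windows of Atp5g2 and 33.0% of those of Atp5g1 occur in no other annotated transcript, against 100% for Atp5g3. Atp5mpl, a small membrane subunit, had 116, 101 and 107 CPM in Plg WT and 101, 136 and 138 CPM in Plg KO. Atp5j, of the stalk that holds the head still, had 313, 263 and 292 CPM in Plg WT and 265, 333 and 359 CPM in Plg KO. Atp5h, of the same stalk, had 159, 133 and 137 CPM in Plg WT and 127, 157 and 175 CPM in Plg KO. In all 4 genes Plg KO 2 and Plg KO 3 were near or above the top of the Plg WT range, and Plg KO 1 within or below it.

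The members with the highest and with the steadiest levels were also read one by one, and were chosen after their values were seen. Atp5a1 and Atp5b, the alternating subunits of the catalytic head of complex V, had the highest CPM of the members. Atp5a1 had 1028, 910 and 964 CPM in Plg WT 1, 2 and 3 and 799, 990 and 1073 CPM in Plg KO 1, 2 and 3. Atp5b had 1006, 898 and 945 CPM in Plg WT and 854, 1088 and 1020 CPM in Plg KO. Ndufab1, the mitochondrial acyl carrier protein that is also a subunit of complex I, varied least, with 47.4, 44.8 and 47 CPM in Plg WT and 45.3, 47.8 and 46.6 CPM in Plg KO. Its highest library was 1.07 times its lowest, while 6 members exceeded a ratio of 2.

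Copies elsewhere in the genome limit how the levels of some members can be read. Of the 90 tested members 29 had every 37-base window of their transcript to themselves, and 9 had fewer than 50% of them. The 9 were Ndufb4c, Uqcrb, Cox6c2, Cox7c, Atp5g1, Atp5g2, Atp5h, Atp5l and Atp5o. The lowest levels per length in complex V, 23.1 CPM per kb for Atp5g2 and 32.3 for Atp5l, belong to the 2 of its genes with the fewest windows of their own. The sources used here do not state how reads with several matches were counted.

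Ndufs5, a supernumerary subunit of complex I, differed between libraries more than any other member and did so within Plg WT. It had 5.51, 29.9 and 57.2 CPM in Plg WT 1, 2 and 3 and 29.5, 33.2 and 30.4 CPM in Plg KO 1, 2 and 3. The highest library was 10.4 times the lowest, whereas the median of this ratio over the members was 1.36. The entry Ndufs5-ps, annotated on GRCm38 as a processed pseudogene on the plus strand at chr16:42955631-42955949, went the opposite way. It had 2863, 1123 and 363 counts in Plg WT and 1323, 1210 and 1589 counts in Plg KO. Ndufs5 itself lies on the minus strand at chr4:123712710-123718202. The first 150 coding bases of Ndufs5 and the matching bases of the pseudogene, from GENCODE M21 transcripts, show how close the pair is, with the bases that differ in capitals.
Ndufs5: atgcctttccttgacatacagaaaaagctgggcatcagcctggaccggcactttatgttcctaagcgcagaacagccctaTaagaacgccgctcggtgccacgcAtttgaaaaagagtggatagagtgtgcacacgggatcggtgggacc
Ndufs5-ps: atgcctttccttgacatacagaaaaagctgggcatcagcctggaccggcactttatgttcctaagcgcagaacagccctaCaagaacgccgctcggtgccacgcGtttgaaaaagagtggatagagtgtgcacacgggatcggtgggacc
Counted from 1 at the A of the start codon, and with the base of Ndufs5 first, the differences were T81C and A105G. They were the only 2 mismatches in 319 aligned bases, an identity of 99.4%.

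The pseudogene entry took 93.4, 57.3 and 16.9% of the counts of the pair in Plg WT 1, 2 and 3, against 54.7, 58.6 and 59.4% in Plg KO 1, 2 and 3. The sum of both entries was 83.1, 70.6 and 68.8 CPM in Plg WT and 65.3, 80.0 and 74.8 CPM in Plg KO, and its highest library was 1.27 times its lowest. The summed level differed between genotypes by a log2 value of -0.02 ± 0.12 (SE; adjusted p = 0.986, edgeR), against a standard error of 0.66 for Ndufs5 alone. For Ndufs5 alone the log2 difference was 0.01 in edgeR and 0.61 in limma-voom. Of 12 -ps entries with a member of the same name, 3 others had at least 100 counts in every library. Their shares ran from 24.5 to 26.5% for Ndufa12-ps, 7.74 to 9.22% for Cox5b-ps and 2.27 to 2.87% for Atp5pb-ps, so the highest was at most 1.26 times the lowest, against 5.53 times for Ndufs5-ps. The remaining 8 had fewer counts, with shares of 0.075 to 4.2% and ratios of 1.36 to 3.77. The cause of the varying split for Ndufs5 was not tested.

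**Figure D4:**
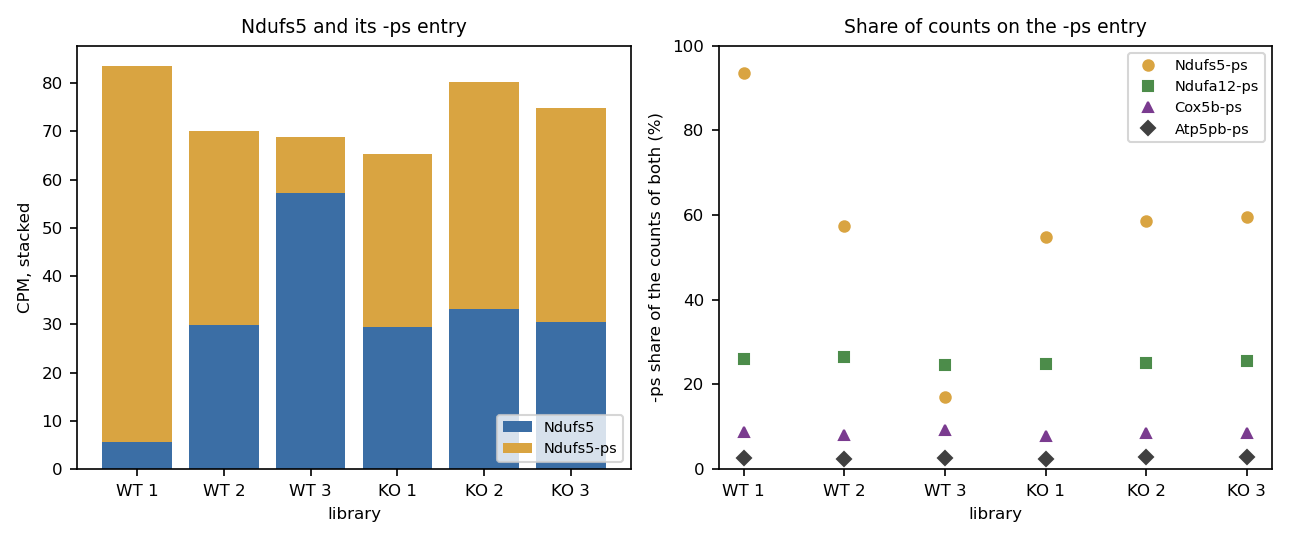
Left, CPM of Ndufs5 and of Ndufs5-ps stacked in each library; right, the share of the counts of a gene and its -ps entry that fell on the -ps entry, in percent, for 4 pairs. The stacked sum stays between 65.3 and 83.1 CPM while the Ndufs5-ps share runs from 16.9% in Plg WT 3 to 93.4% in Plg WT 1; the other 3 pairs, those with at least 100 counts on the -ps entry in every library, vary by at most 1.26 times.

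Other genes of respiration, in lists chosen with earlier results of these data known, likewise held 0 called genes. This was so for 8 genes of complex II, 10 tested subunits encoded by mitochondrial DNA, 3 tested genes of cytochrome c and its synthesis, 18 of the citric acid cycle and pyruvate dehydrogenase, 15 of fatty acid oxidation, 13 carriers and uncoupling proteins and 32 further assembly factors. It was also so for 15 genes of mitochondrial DNA expression, 15 regulators of mitochondrial biogenesis, 77 genes of the mitochondrial ribosome and 100 names of the cytosolic ribosome pattern. At an unadjusted p under 0.05 edgeR counted 3 of the 306 tested genes of these lists (0.98%), against 9.25% of all tested genes. They were Mrpl9 and Mrpl33 of the mitochondrial ribosome, with log2 differences of 0.23 and 0.24, and the mitochondrial helicase Twnk at -0.26. mt-Atp8 had 0 counts over the 6 libraries and mt-Nd3 and mt-Nd4l 3 counts each, so these were not tested.

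The level in Plg KO 1 is given for each list, with no test between lists. Beside -0.25 for the nuclear-encoded subunits, the mean centred log2 level in Plg KO 1 was -0.23 for complex II, -0.31 for the mitochondrially encoded subunits, -0.31 for cytochrome c and its synthesis, -0.40 for the citric acid cycle, -0.24 for fatty acid oxidation and -0.40 for the carriers. It was -0.12 for the biogenesis regulators, -0.08 for the mitochondrial ribosome, -0.08 for the further assembly factors, -0.03 for mitochondrial DNA expression and 0.04 for the cytosolic ribosome. The assembly factors of complex I had -0.10. Plg KO 1 was the lowest library for 30 of 77 mitochondrial ribosome genes and 11 of 32 further assembly factors, where 18.8% of all tested genes were lowest there.

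**Figure D5:**
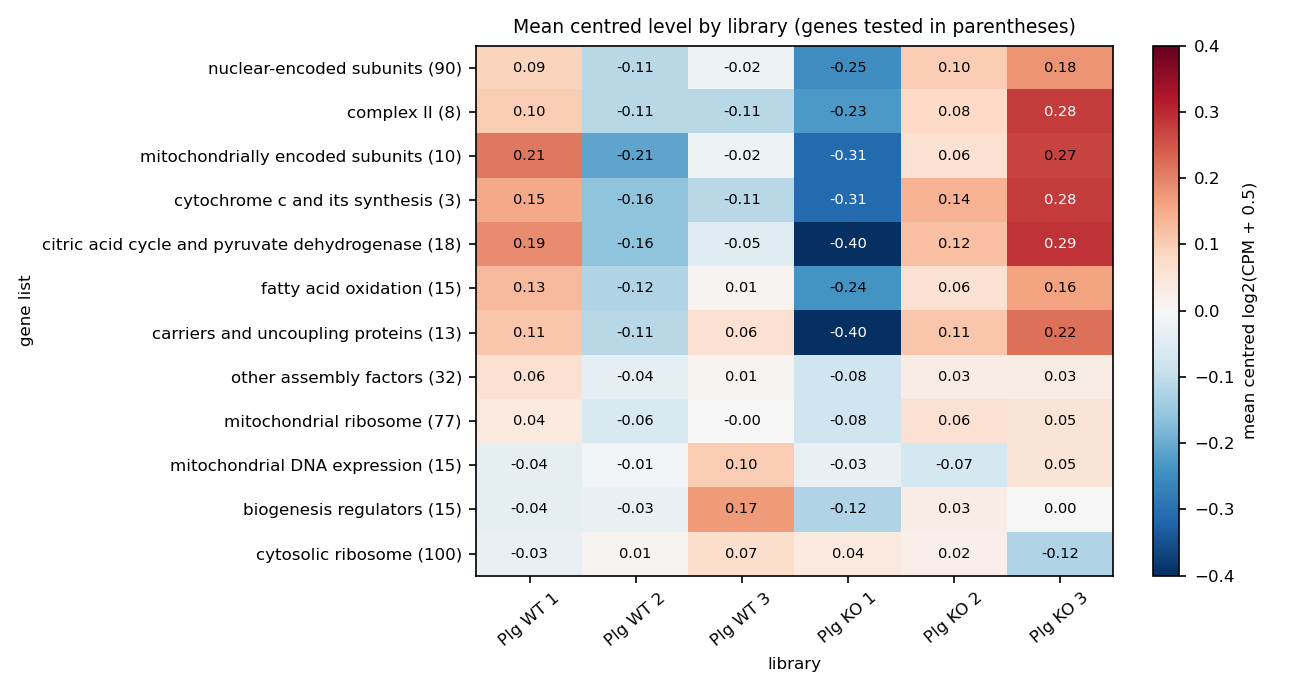
Mean centred level of 12 gene lists in each library, on a log2(CPM + 0.5) scale, with the number of genes tested in parentheses. Blue is below and red above the mean over 6 libraries; the subunit, citric acid cycle and carrier lists are lowest in Plg KO 1 (-0.23 to -0.40) and highest in Plg KO 3, whereas the ribosome lists stay within 0.12 of their mean.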

How the data were processed

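RNA of 6 gingiva libraries was measured with Nextera XT libraries, which do not mark strand, read as 37 bp pairs on a NextSeq500, per the labels' protocols. STAR 2.5.2a, edgeR, limma and DESeq2, and the builds GRCm38.p3 and mm10, stand in the submitters' processing notes without a role. The sources used here name no counting tool and no annotation for the counts. The authors deposited a table of raw counts per gene (48709 genes, plus 22 entries that name no gene, at most 3.55e-05% of a library, left out). They also deposited CPM after TMM scaling for 21948 genes, with a count of 6 or more in at least 1 library. Whole reads recovered from the deposited CPM (100% of values within a tolerance of 0.01) are the same counts, so the count test serves for both.

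The members and gene lists were chosen with earlier results of these data known. The test was edgeR 4.0.16 (R 4.3.3), quasi-likelihood, on the counts with TMM factors and filterByExpr, with Benjamini-Hochberg adjustment over 17757 genes and genotype as the only term. CPM in the text come from this fit, and SE and intervals from its F values. Levels per length use 1 GENCODE M21 principal transcript a gene. Named genes were, in each class, the 4 with the smallest p and the highest level per length, the 5 largest differences in each direction at 1 CPM or more, and the tissue isoforms with their partners. Ndufs5, Ndufab1, Atp5a1 and Atp5b were chosen after their values were seen. A gene that the rule selects is not reported here. Isoform ratios used log2(CPM + 0.5) and exact permutation tests. Alternatives were DESeq2 1.42.0, limma-voom and limma-trend (limma 3.58.1, pseudocounts 0.5 and 2), other factors and filters, a replicate block, a sex term, female libraries alone, an adjusted p under 0.10 and leaving out each library. Scripts were tested on simulated data.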

Additional observations from a re-analysis of the deposited data

How the results depend on the processing

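Under every alternative run, 0 members were called higher and 0 lower in Plg KO. Those were DESeq2, limma-voom, limma-trend with pseudocounts of 0.5 and 2, RLE, upper-quartile or no factors, no filter, a stricter filter, TMM without the 10 most abundant genes, the replicate block, a sex term, female libraries, an adjusted p under 0.10, each library left out, and -ps counts added to their gene. The last was added after seeing the data. The median log2 difference of 0.04 ran from 0.02 to 0.04 under other tools, factors and filters, with 52 of 90 positive under upper-quartile factors. It depended on single libraries, from -0.04 without Plg KO 3 and -0.01 without Plg WT 2 or Plg KO 2 to 0.11 (Plg WT 1 left out) and 0.15 (Plg KO 1 left out), and the cause was not tested. Of 40 members followed singly, 22 kept the sign of their log2 difference under every setting (16 positive, 6 negative), 7 turned under another tool, factor, filter or term and 18 with a library left out. With the replicate block the median was 0.03, 58 of 90 were positive, 0 members were called and 2 genes were called in all, against 42. Deviations from the group means correlated at -0.322, -0.036 and -0.288 for libraries with the same number. For libraries with different numbers they ran from -0.153 to 0.365. Such deviations from a mean of 3 libraries depend on each other, and they also hold differences of sex and tissue content. They cannot decide whether the numbers mark a pairing. Genes called in all numbered 395 with DESeq2, 162 with no filter and 219 without Plg WT 1, against 2 to 3 without Plg WT 2, Plg WT 3, Plg KO 2 or Plg KO 3. With 3 libraries a group the 95% intervals lay within 1.5-fold for 78 of 90 members, and smaller differences may not be detectable.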
